A study of Mus musculus with 24 samples.

Results

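Macrophages grown from the bone marrow of mice without functional Hdac9 (KO) were compared with wild-type macrophages (WT) after stimulation with lipopolysaccharide (LPS), a component of the outer membrane of Gram-negative bacteria. The comparison takes 8 of the 24 RNA sequencing libraries of the study, 4 KO and 4 WT, and covers the 14757 genes that passed a filter on low counts. Both groups were differentiated with conditioned medium of L929 cells, kept for a day without it and then given LPS at 100 ng/ml for 6 hours in medium without serum. The other 16 libraries are untreated WT and KO macrophages and macrophages of a line lacking a cis-regulatory element (dCIS), untreated or given the same LPS. The labels call the genotype an HDAC9 knockout and give neither the construct, the strain, the number of backcrosses nor the age of the mice. Loss of Hdac9 and any other difference between the KO and WT lines cannot be told apart in this design.

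Histone deacetylase 9 belongs to the class IIa deacetylases together with HDAC4, HDAC5 and HDAC7. These proteins move between cytoplasm and nucleus, bind transcription factors of the MEF2 family and recruit the corepressors NCoR and SMRT, and they have little deacetylase activity of their own. LPS binds the receptor TLR4, whose adaptors MyD88 and TRIF lead to NF-kB and to interferon regulatory factors, and so to cytokines, chemokines and interferon-stimulated genes. The title of the study ties Hdac9 to the inflammasome, the complex through which caspase-1 matures IL-1β and IL-18. The comparison asks which transcripts differ without Hdac9 once the macrophages respond to LPS.

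Library totals ran from 16328738 to 16712666 counts in WT and from 14636058 to 16570668 in KO. Levels are counts per 1000000 (CPM) on library sizes scaled by the trimmed mean of M-values, and are not divided by gene length, so they compare libraries and not genes. A gene is said to be called, higher or lower, when its adjusted p in edgeR's quasi-likelihood test was under 0.05 over all tested genes. The labels do not tell whether the 4 libraries of each group stand for different mice or dishes, so p-values measure only the spread between libraries, which may be technical. In edgeR's test that spread is estimated over all 24 libraries, untreated ones included, and not over the 8 compared libraries alone. Some macrophage genes were high in each of the 8 libraries. Adgre1 was at 2737 to 3595 CPM in WT and 3285 to 4331 CPM in KO, and Lyz2 at 14331 to 16440 and 13372 to 15201 CPM. Other genes of the same list were low: Cx3cr1 at 0.0808 to 1.4 and 0.629 to 1 CPM, Timd4 at 0 to 0.388 and 0.558 to 1.62 CPM and Cebpa at 1.71 to 2.82 and 1.71 to 2.26 CPM. Among markers of other cells, Ly6g and Elane of neutrophils, Cd79a of B cells, Cpa3 of mast cells and Col3a1 of fibroblasts had 0 counts in all 8, while others were detected. Summed over whole lists, neutrophil markers were at 3.18 to 4.31 CPM in WT and 3.03 to 5.3 CPM in KO, and lymphocyte markers at 8.99 to 13.7 and 8.53 to 15.6 CPM, with Cd4 at 5.72 to 10.4 and 6.38 to 11.9 CPM and Cd79b at 2.94 to 4.12 and 1.91 to 3.41 CPM. Dendritic cell markers summed to 16.8 to 23.9 and 16.3 to 32.3 CPM, and fibroblast and endothelial markers to 56.4 to 69.7 and 66.7 to 87.7 CPM, with Kdr at 31 to 44.5 and 38.6 to 57.2 CPM. Erythroid and megakaryocyte markers summed to 552 to 643 and 612 to 807 CPM, of which Pf4 made 548 to 640 and 608 to 799 CPM, and the haemoglobin genes of the list were at 0. Lists of mast cells and basophils stayed at or under 1.08 CPM. In such bulk samples fewer cells of a type and less RNA per cell cannot be told apart.

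Hdac9 itself was nearly absent from KO. The WT libraries held 11.4, 16.5, 10.4 and 11.0 CPM, from 139, 213, 133 and 136 counts. The KO libraries held 0.464, 0.0898, 0.334 and 0.319 CPM, from 5, 1, 4 and 4 counts. Each KO library lay far below each WT library, as the genotype labels state. The KO mean was 2.45% of the WT mean, and on the log2 scale the fold change was -5.32 (SE 0.335, edgeR adjusted p 1.37e-10). The mean difference of -12.0 CPM gave p 0.0286 in a 2-sided exact permutation test, which 4 against 4 libraries cannot go below. The other class IIa genes were not called: on the log2 scale Hdac4 differed by 0.32 (SE 0.18), Hdac5 by 0.25 (SE 0.168) and Hdac7 by 0.11 (SE 0.183), with edgeR adjusted p-values of 0.324, 0.421 and 0.78. Their KO and WT libraries overlapped. Of 7 tested deacetylases of other classes edgeR and DESeq2 called 0, where edgeR called 2.74% of all tested genes. An unadjusted p under 0.05 was found for 0 of the 7, against 21.2% of all tested genes.

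RefSeq lists Hdac9 starts at widely separated positions on chromosome 12. The sequences around them are shown because the gene's loss defines the comparison. Each runs from 250 bases before to 50 bases after the annotated start on GRCm38.p6, 5′ to 3′ on the gene's strand, which is the minus strand, at chr12:34917046-34917345 and chr12:34528840-34529139.
Hdac9 upstream start: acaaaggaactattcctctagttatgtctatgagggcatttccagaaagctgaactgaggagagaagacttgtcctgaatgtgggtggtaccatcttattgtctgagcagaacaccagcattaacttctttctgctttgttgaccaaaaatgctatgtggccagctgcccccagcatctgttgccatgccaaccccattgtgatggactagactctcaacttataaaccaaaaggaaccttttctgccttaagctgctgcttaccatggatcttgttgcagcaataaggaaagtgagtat
Hdac9 downstream start: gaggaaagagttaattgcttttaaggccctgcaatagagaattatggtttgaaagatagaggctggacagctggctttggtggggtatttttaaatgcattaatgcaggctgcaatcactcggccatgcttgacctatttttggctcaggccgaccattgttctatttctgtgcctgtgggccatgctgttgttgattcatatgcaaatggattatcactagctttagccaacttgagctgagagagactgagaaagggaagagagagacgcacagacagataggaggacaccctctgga
Neither window holds a match on either strand to the MEF2 consensus or to the core of the interferon-stimulated response element, GAAA, any 2 bases and GAAA again.

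Between KO and WT after LPS, 405 genes were called, 2.74% of those tested. Of these 341 were higher in KO (2.31% of tested genes) and 64 were lower (0.434%), and 79 differed by at least 1 on the log2 scale, 59 upward and 20 downward. KO and WT libraries did not overlap in 396 of the 405, against 18.3% of all tested genes. The genes with large differences were few and of many kinds: surface proteins, metalloreductases, a polyamine enzyme, a metalloprotease and a nucleolar protein. The count rested strongly on single libraries. It was 68 without WT library 3, 91 without KO 1, 100 without WT 2, 109 without KO 3, 202 without WT 1 and 215 without KO 2. Called without each of the 8 libraries in turn were 65 genes, of which 40 differed by at least 1.

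A second property of the calls was transcript length. The longest annotated transcript had a median of 7011 bases among genes called higher and 1930 bases among genes called lower, against 2908 bases over tested genes. With the tested genes ordered by length and cut into 10 equal groups, the median log2 fold change went from -0.22 in the shortest group to 0.36 in the longest. In that longest group, transcripts of at least 6322 bases, 197 genes were called higher (13.6%) and 2 lower. The change of log2 CPM per doubling of length, relative to the mean of the 8 libraries over 8681 genes, was -0.0532, -0.102, -0.164 and -0.0313 in WT libraries 1 to 4. It was 0.13, 0.0884, 0.082 and 0.0498 in KO libraries 1 to 4. Every KO library thus leaned to long transcripts and every WT library to short ones (exact 2-sided permutation p 0.0286). That is the smallest p that 4 against 4 libraries allow, and the lean was examined after the data were seen. Between dCIS and WT after LPS the medians also rose with length, from -0.163 in the shortest group to 0.0987 in the longest. That comparison shares the WT libraries. The same lean of KO against WT appeared in untreated libraries, at -0.136 to -0.0471 in WT and 0.0729 to 0.12 in KO. What part it has in any gene's difference was not tested.

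**Figure D1:**
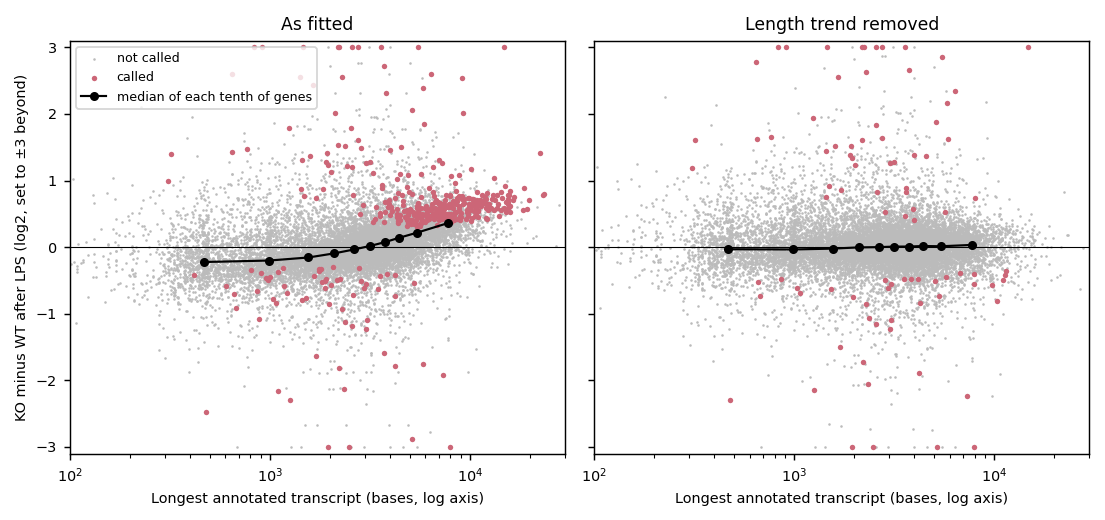
Log2 difference between KO and WT after LPS (vertical, values beyond 3 drawn at the edge) against the longest annotated transcript in bases (log axis) for genes with a length, called genes in red. On the left the medians of 10 equal groups of genes climb from -0.22 to 0.36 with length, and on the right, with each library's length trend taken out, they stay between -0.0345 and 0.0335.

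When each library's trend with length was taken out, 89 genes were called (0.613% of 14527), 48 higher (0.33%) and 41 lower (0.282%). The share of calls that were higher thereby went from 84.2% to 53.9%. Of the 405 genes, 77 were among the 89: 51 of 76 with a difference of at least 1 and 26 of 323 with a smaller one. In what follows a call that ended with the trend removed is named as such. Lack of overlap was a condition for naming the largest rises and falls, so it is no further support for them.

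Among proteins at the cell surface and receptors, the clearest fall was that of Cd200. It encodes a membrane glycoprotein whose receptor restrains myeloid cells. WT libraries held 30.4, 23.4, 25.9 and 19.2 CPM and KO libraries 7.88, 6.02, 5.43 and 3.43 CPM. Even the highest KO library lay far under the lowest WT library. The log2 fold change was -2.13 (SE 0.3, edgeR adjusted p 0.000128). In untreated cells the gene was low in both, at 1.85 ± 1.01 CPM in WT and 0.341 ± 0.279 CPM in KO (SD, n = 4).

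Gpr141b went the other way. RefSeq lists it as coding for an orphan G protein-coupled receptor, and GENCODE as a long non-coding RNA. It was at 0.409, 0.311, 0 and 0.0808 CPM in WT and at 9.92, 8.0, 9.7 and 6.06 CPM in KO. The gene was close to undetected in WT and present in every KO library, with a log2 fold change of 5.35 (SE 0.555, edgeR adjusted p 2.14e-06). Kcna3, a voltage-gated potassium channel of leukocytes, was at 5.85 ± 1.2 CPM in WT and 14.1 ± 3.22 CPM in KO (log2 1.27, SE 0.282, edgeR adjusted p 0.018). Its call was lost without WT library 2 (adjusted p 0.0741) or 3 (0.112) and without KO library 1 (0.1004) or 3 (0.0526).

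Genes of iron and copper handling included some of the largest rises. Steap3, a ferrireductase that frees iron from transferrin in endosomes, was at 7.52, 11.1, 9.09 and 9.54 CPM in WT. In KO it was at 40.3, 48.8, 32.4 and 34.4 CPM. The lowest KO library stood well above the highest WT library, and the log2 fold change was 2.06 (SE 0.16, edgeR adjusted p 4.22e-09). Its relative Steap4, a metalloreductase, was at 8.09, 7.92, 8.23 and 8.57 CPM in WT and 17.7, 27.4, 13.5 and 21.4 CPM in KO. WT libraries were tight and KO libraries spread over a wider range above them (log2 1.28, SE 0.214, edgeR adjusted p 0.00115). Untreated macrophages of either genotype held at most 0.0495 CPM of Steap4, so its difference was seen after LPS.

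Of 14 tested genes on the list of iron handling, 3 were called higher, against 2.31% of all tested genes, and 0 lower, and the median log2 fold change was 0.10, against 0.01 over all tested genes. The third was Ireb2, an RNA-binding regulator of ferritin and transferrin receptor (log2 0.40, SE 0.0902, edgeR adjusted p 0.0191). Its call ended with the length trend removed (0.17, adjusted p 0.28) and without WT library 3 (0.131), KO 1 (0.0705), KO 2 (0.0523) or KO 3 (0.0554). Ftl1, a ferritin subunit, was at 2635 ± 228 CPM in WT and 2140.3 ± 124 CPM in KO and was not called (log2 -0.30, adjusted p 0.141). Atp7a, a copper transporter, was higher by 1.09 (SE 0.273, adjusted p 0.0345). That call was lost with the length trend removed, though the value was about as large (log2 0.93, adjusted p 0.0778), and without WT library 2 (0.116) or 3 (0.181) and KO library 1 (0.125) or 3 (0.0889).

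Polyamine synthesis was represented by a fall and its linked methionine salvage by a rise. Odc1, ornithine decarboxylase, which commits ornithine to polyamines, was at 145, 136, 138 and 117 CPM in WT. In KO it was at 41.0, 29.6, 44.6 and 37.6 CPM. No KO library reached even the middle of the gap to WT, and the log2 fold change was -1.81 (SE 0.159, edgeR adjusted p 3.66e-08). Adi1, acireductone dioxygenase, which returns the methylthio group left by polyamine synthesis to methionine, was at 4.17, 4.43, 3.92 and 5.82 CPM in WT and 23.8, 32.0, 18.7 and 24.6 CPM in KO. Its KO libraries all exceeded WT (log2 2.43, SE 0.191, edgeR adjusted p 4.3e-09). These were the called genes among 19 tested on the list of arginine, nitric oxide and polyamines, whose median was -0.12. The 1 higher and 1 lower stand against 2.31% and 0.434% of all tested genes. At an unadjusted p under 0.05 there were 7, against 21.2% of all tested genes. With the length trend removed 1 was called higher and 2 lower. DESeq2, which called 1069 of all 14757 tested genes, called 3 of the list. Srm, spermidine synthase, had a log2 fold change of -0.40 (SE 0.186) and Oaz1, the antizyme that inhibits ornithine decarboxylase, of -0.37 (SE 0.122), with edgeR adjusted p-values of 0.216 and 0.0893.

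Adam19 and Adam17 were the called genes on the list of matrix proteases and inhibitors. Adam19, a metalloprotease that sheds membrane proteins, was at 2.62, 1.71, 2.2 and 1.54 CPM in WT and 12.3, 15.1, 10.0 and 11.7 CPM in KO. The groups were widely separated (log2 2.61, SE 0.359, edgeR adjusted p 9.07e-05). Adam17, the sheddase of TNF, was at 576 ± 61.5 CPM in WT and 808 ± 80.5 CPM in KO (log2 0.49, SE 0.114, adjusted p 0.0248). The Adam17 call ended with the length trend removed (log2 0.36, adjusted p 0.0964) and when WT 2 (0.0886), WT 3 (0.151), KO 1 (0.102), KO 2 (0.0649) or KO 3 (0.0558) was left out. Part of the Adam17 gene overlaps Iah1 on the opposite strand, which was called lower (log2 -0.51, adjusted p 0.025). Mmp9, a gelatinase, was at 38 ± 9.38 and 93.4 ± 40.4 CPM with overlapping libraries and was not called (log2 1.30, adjusted p 0.0563). That list had 2 of 22 tested genes called, both higher, against 2.31% called higher over all tested genes, and a median of -0.04. DESeq2 called 3 of the list.

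**Figure D2:**
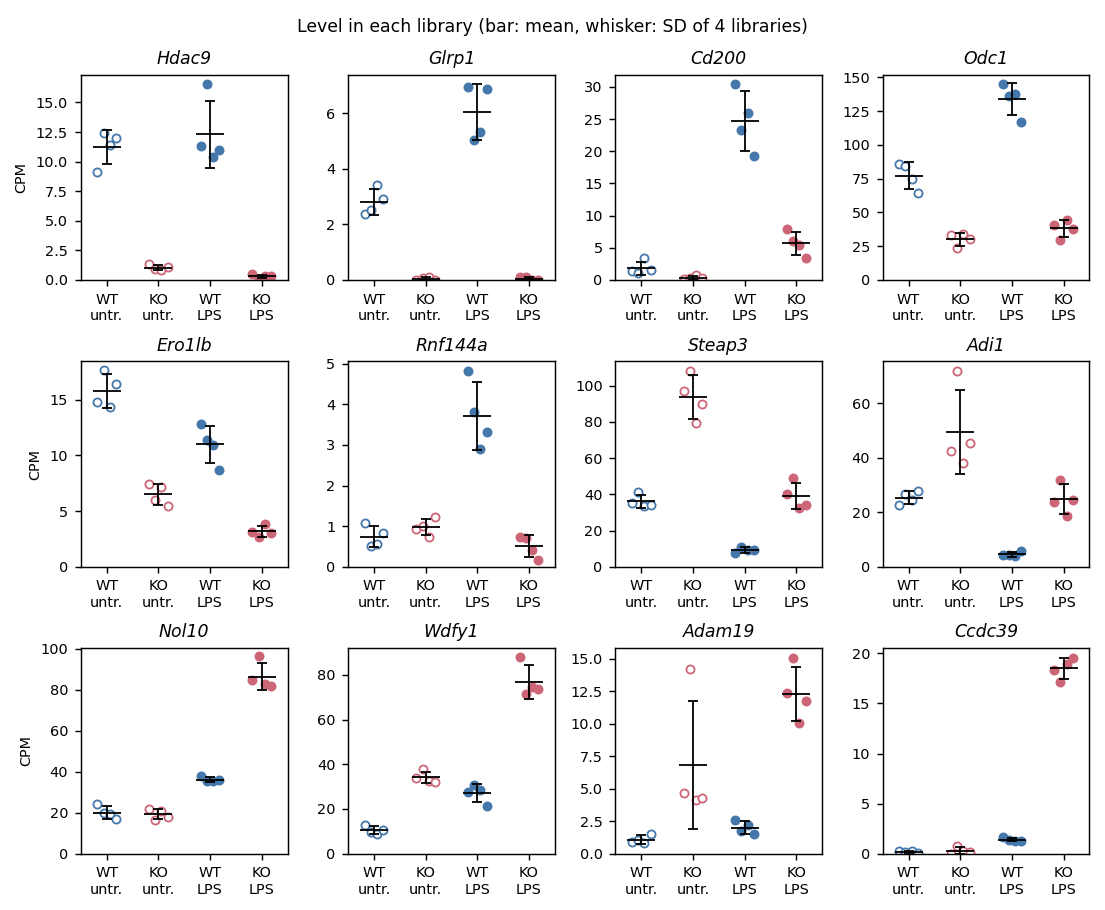
CPM of 12 genes in each library, with untreated libraries as open and LPS libraries as filled circles, WT in blue and KO in red; bars are means and whiskers SDs of 4 libraries. After LPS the KO libraries lie wholly below WT for Hdac9, Glrp1, Cd200, Odc1, Ero1lb and Rnf144a, and wholly above for the other 6. Most of these genes were picked for lack of overlap, so the separation is no further support.

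Further falls came from single genes of the endoplasmic reticulum and the mitochondrion. Ero1lb, an oxidase of protein disulfide isomerase in the endoplasmic reticulum, was at 12.8, 11.4, 11.0 and 8.73 CPM in WT and 3.15, 2.69, 3.85 and 3.03 CPM in KO. The KO libraries were all low and close together (log2 -1.78, SE 0.178, edgeR adjusted p 3.53e-07). Of the 20 tested genes of the unfolded protein response, edgeR called 1, Ero1lb, against 0.434% called lower over all tested genes. DESeq2 called 2 of them. That list had a median of -0.20, -0.14 with the length trend removed, and 10 of 20 members at an unadjusted p under 0.05, against 21.2% of all tested genes. Hspa5, the main chaperone of that compartment, was at 3586 ± 85.1 CPM in WT and 3057 ± 172 CPM in KO (log2 -0.23, SE 0.0994, adjusted p 0.181). Ndufs5, a subunit of respiratory complex I, was lower by 0.91 on the log2 scale (SE 0.183, adjusted p 0.00815), at 20.8 ± 1.33 CPM in WT and 11.0 ± 1.06 CPM in KO.

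Pairs of near-identical genes need care, since how shared reads were counted is not stated. The aldo-keto reductase genes Akr1c12 and Akr1c19 neighbour each other on chromosome 13 and moved in opposite directions. Akr1c12 was at 5.15, 5.51, 6.12 and 6.63 CPM in WT and 0.649, 1.71, 1.17 and 1.2 CPM in KO (log2 -2.30, SE 0.23, edgeR adjusted p 3.53e-07). Akr1c19 was at 1.55, 0.699, 0.941 and 1.21 CPM in WT and 5.1, 7.1, 4.6 and 6.38 CPM in KO (log2 2.39, SE 0.444, adjusted p 0.00373). Their groups did not overlap, and both values are uncertain to the extent that reads of one can be assigned to the other. Akr1c13, a further member, was at 16.0 ± 0.907 CPM in WT and 15.9 ± 2.29 CPM in KO (edgeR adjusted p 0.993).

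Several large differences concerned genes known chiefly from other tissues or known little. Glrp1, glutamine repeat protein 1, was at 6.95, 5.05, 5.33 and 6.87 CPM in WT and 0.0927, 0.0898, 0 and 0 CPM in KO. With 2 counts over the KO libraries against 303 over WT, the KO level was 0.714% of WT, with an exact 95% interval of 0.0861% to 2.6% that covers counting error only. Ccdc39, a protein of motile cilia, was at 1.63, 1.4, 1.25 and 1.29 CPM in WT and 18.4, 17.2, 19.0 and 19.5 CPM in KO. WT was uniformly low and KO uniformly high (log2 3.72, SE 0.354, edgeR adjusted p 1.62e-07). Ccdc39 overlaps Ttc14 on the opposite strand, which was also higher (28.0 ± 1.71 against 40.4 ± 2.63 CPM, log2 0.53, adjusted p 0.022), and without a stated strand setting reads of the overlap cannot be assigned.

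Wdfy1, an endosomal protein that binds phosphatidylinositol 3-phosphate, was at 27.5, 30.9, 28.3 and 21.4 CPM in WT and 87.9, 71.4, 74.7 and 73.4 CPM in KO. KO exceeded WT in every library (log2 1.51, SE 0.131, edgeR adjusted p 3.36e-08). Arl4c, a small GTPase, was higher by 1.46 on the log2 scale (SE 0.286, adjusted p 0.00662), and its call was lost without WT library 3 (0.0508). Neb, the giant muscle protein nebulin with a transcript of 22489 bases, was higher by 1.42 (SE 0.382, adjusted p 0.0424). The Neb call ended with the length trend removed (log2 0.83, adjusted p 0.287) and without each library other than KO 4 (0.0515 to 0.197).

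Smaller falls included Gadd45g, a stress-induced regulator of growth and MAP kinase signalling, at 82.7 ± 7.44 CPM in WT and 46.0 ± 11.3 CPM in KO (log2 -0.85, SE 0.152, edgeR adjusted p 0.00259). B4galt4, a galactosyltransferase of the Golgi, was lower by 0.93 on the log2 scale (SE 0.184, adjusted p 0.00713), a call lost without WT library 3 (0.0505). Acp5, tartrate-resistant acid phosphatase, known from osteoclasts, was at 10.1 ± 1.63 CPM in WT and 5.86 ± 1.34 CPM in KO (log2 -0.79, SE 0.203, adjusted p 0.0363). Its call ended with the length trend removed (log2 -0.65, adjusted p 0.15) and without each library other than WT 1 and KO 2 (0.0712 to 0.149). The other 5 tested osteoclast genes were not called by edgeR, which called 0.434% of all tested genes lower. Of the 6 tested, 4 had an unadjusted p under 0.05, against 21.2% of all tested genes, and DESeq2 called 2 of the list. The 9 genes of that marker list summed to 57.2 to 77.9 CPM in WT and 74.7 to 168 CPM in KO, and their part in the Acp5 value was not tested. Mmp9, which is not confined to osteoclasts, made 25.9 to 47.8 CPM of that sum in WT and 40.2 to 135 CPM in KO.

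The inflammatory programme itself gave few calls, as did all tested genes together, of which edgeR called 2.74%. Among 18 tested genes of the inflammasome, 12 of the IL-1 family, 17 inflammatory cytokines, 19 chemokines, 38 genes of the type I interferon response, 23 of TLR4 signalling and 23 of NF-kB and its feedback, edgeR called 0. DESeq2, which called 1069 of all 14757 tested genes against 405 by edgeR, called 2 of TLR4 signalling, 1 of NF-kB and 0 of the other lists. At an unadjusted p under 0.05 there were 5, 1, 2, 2, 2, 7 and 5 genes in that order, against 21.2% of all tested genes. The medians of these lists lay between -0.07 for chemokines and 0.14 for inflammasome genes. Summed levels of the interferon list did not overlap, at 68800 to 73900 CPM in WT and 77200 to 84600 CPM in KO. Its most abundant member, Rsad2, was at 17725 ± 623 and 20426 ± 394 CPM without overlap (log2 0.20, edgeR adjusted p 0.595). Members went both ways, and Isg15 was lower without overlap, at 1969.5 ± 208 and 1549 ± 143 CPM (log2 -0.35, adjusted p 0.504). A p that misses the threshold does not show equal levels, and the intervals below give what sizes remain possible under the spread estimated over all 24 libraries.

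Il1b was at 1363, 561, 941 and 819 CPM in WT and 912, 1025, 1131 and 1168 CPM in KO. WT libraries spread more widely than KO libraries and enclosed them. The log2 fold change was 0.20 with a 95% interval from -0.42 to 0.83 (edgeR adjusted p 0.769). Nlrp3, the sensor of the inflammasome that the title points to, was at 764, 524, 545 and 693 CPM in WT and 807, 895, 742 and 764 CPM in KO. The groups met, since the highest WT library exceeded the lowest KO library (log2 0.34, interval 0.03 to 0.66, adjusted p 0.217). Casp1, the protease that cuts pro-IL-1β, had a narrow interval around 0, from -0.14 to 0.24 (log2 0.05, adjusted p 0.821). Il18 was at 173, 171, 179 and 199 CPM in WT and 145, 193, 147 and 165 CPM in KO (log2 -0.15, interval -0.36 to 0.05, adjusted p 0.42).

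The other cytokines named were not called either. Il1a had a log2 fold change of 0.24 (interval -0.29 to 0.77, edgeR adjusted p 0.662), Tnf of 0.08 (-0.30 to 0.46, adjusted p 0.863), Il6 of 0.02 (-0.41 to 0.45, adjusted p 0.968) and Il10 of -0.18 (-0.55 to 0.20, adjusted p 0.648). Nos2, inducible nitric oxide synthase, differed by 0.15 with a wide interval, from -0.53 to 0.84 (adjusted p 0.85). After LPS it was at 1999.5 ± 203 CPM in WT and 2221 ± 358 CPM in KO. The interval rests on a spread estimated over all 24 libraries, and untreated WT and KO libraries held at most 3.09 CPM of Nos2. Cxcl1, a neutrophil-attracting chemokine, had the largest value of the chemokines at 1.04 (SE 0.331), at 12.2 ± 6.6 CPM in WT and 24.9 ± 6.99 CPM in KO with overlapping libraries (adjusted p 0.078). Mx2, of the interferon-induced GTPases and listed by GENCODE as a polymorphic pseudogene, was at 653 ± 23.6 and 840 ± 59.5 CPM (log2 0.36, adjusted p 0.23).

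**Figure D3:**
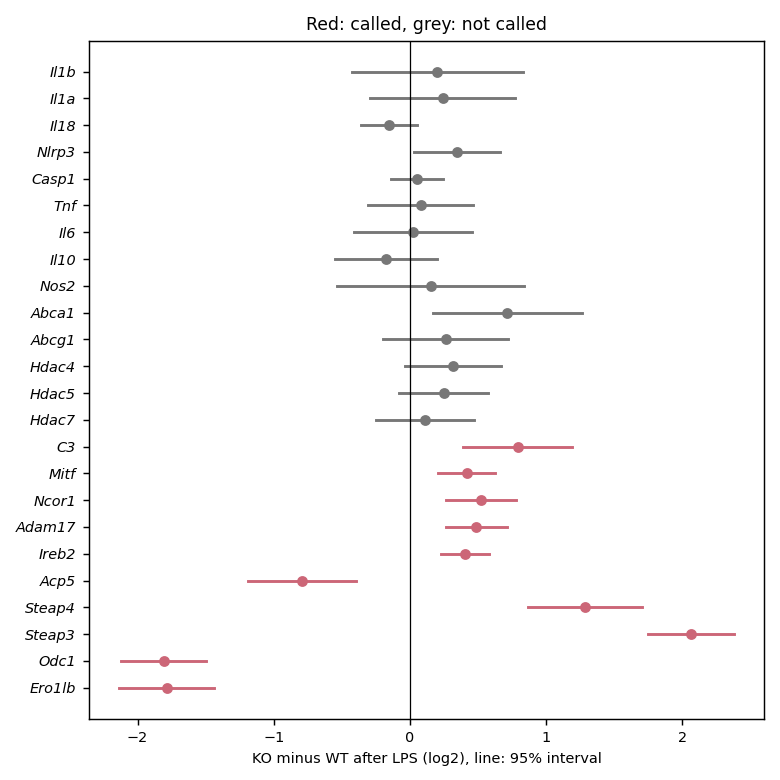
Log2 difference between KO and WT after LPS for inflammatory, cholesterol efflux and class IIa deacetylase genes and for called members of the gene lists, with lines for the 95% interval; called genes are red. The intervals of Il1b, Tnf, Il6, Nos2 and Casp1 span 0, while Steap3 (2.06) and Odc1 (-1.81) lie far from it.

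Cholesterol efflux, by which macrophages rid themselves of lipid, gave no call. Abca1, the transporter that loads apolipoprotein A-I, was at 92.5, 77.9, 59.7 and 83.2 CPM in WT and 114, 168, 128 and 104 CPM in KO. All 4 KO libraries exceeded all WT libraries, but the gene was not called (log2 0.71, SE 0.279, interval 0.17 to 1.26, edgeR adjusted p 0.143). Its transcript has 10262 bases, and with the length trend removed the value was 0.32 (adjusted p 0.555). Abcg1, which exports cholesterol to high-density lipoprotein, was at 121, 175, 128 and 149 CPM in WT and 154, 248, 148 and 138 CPM in KO and overlapped (log2 0.26, adjusted p 0.563). On the list of cholesterol efflux and lipid uptake edgeR and DESeq2 called 0 of 22 genes, where edgeR called 2.74% of all tested genes. Of the 22 genes 2 had an unadjusted p under 0.05, against 21.2% of all tested genes. The median of the list was 0.15, or 0.04 with the length trend removed.

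Antigen presentation and energy metabolism likewise gave no call by edgeR, which called 2.74% of all tested genes. Over all 14757 tested genes DESeq2 called 1069, and 21.2% had an unadjusted p under 0.05. Of 19 genes of MHC class I presentation DESeq2 called 1 and 6 had an unadjusted p under 0.05, with a median of -0.20. Nlrc5, the transactivator of MHC class I genes, was at 555 ± 89 CPM in WT and 786 ± 74.6 CPM in KO (log2 0.50, edgeR adjusted p 0.0582). Psmb10, a subunit of the immunoproteasome, was at 458 ± 39.5 and 333 ± 79.1 CPM (log2 -0.46, adjusted p 0.126). Neither gene passed the test. Of 21 glycolysis genes DESeq2 called 0 and 1 had an unadjusted p under 0.05, with a median of -0.10. That gene, Hif1a, the oxygen-regulated transcription factor that LPS also engages, was at 282 ± 23.5 and 362 ± 8.53 CPM (log2 0.36, edgeR adjusted p 0.119). Of 19 genes of the NRF2 oxidative stress response DESeq2 called 1 and 5 had an unadjusted p under 0.05, with a median of -0.13. Gpx4, which reduces lipid peroxides and so guards against ferroptosis, was at 76.1 ± 5.14 and 55.4 ± 6.15 CPM without overlap, just outside the threshold (log2 -0.46, adjusted p 0.0529). Among 11 mitochondrially encoded genes DESeq2 called 0 and 2 had an unadjusted p under 0.05, with a median of 0.14 that was 0.32 with the length trend removed.

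Single genes of other lists were called with small differences. C3, the central complement component, was at 1844, 1431, 1303 and 1905 CPM in WT and 2685, 3748, 2170.3 and 2616 CPM in KO (log2 0.79, SE 0.204, edgeR adjusted p 0.0367). Ncor1, the corepressor that class IIa deacetylases bind, was at 122 ± 16.4 and 176 ± 23.2 CPM (log2 0.52, adjusted p 0.0345), and Mitf, a transcription factor of the macrophage lineage, at 166 ± 10.4 and 222 ± 19.9 CPM (log2 0.41, adjusted p 0.0364). KO libraries of these 3 genes exceeded the WT libraries, yet the calls did not hold up. With the length trend removed C3 kept much of its difference (log2 0.62, adjusted p 0.159), while Mitf was at 0.25 (adjusted p 0.181) and Ncor1 at 0.15 (adjusted p 0.424). The C3 call was also lost without each library other than WT 4 and KO 3 (0.0534 to 0.193), that of Ncor1 without WT 2 or 3 or KO 1 or 3 (0.0954 to 0.187), and that of Mitf without each library other than KO 4 (0.052 to 0.187).

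The MEF2 genes were not called. Mef2a was at 96.4 ± 10.1 CPM in WT and 131 ± 11.8 CPM in KO (log2 0.44, edgeR adjusted p 0.0715) and Mef2c at 11.5 ± 1.79 and 14.7 ± 2.51 CPM (log2 0.35, adjusted p 0.23). With the length trend removed these values were 0.23 and 0.09. Of 17 tested MEF2 factors and class IIa deacetylase partners, edgeR called 1, Ncor1, against 2.31% called higher over all tested genes. DESeq2 called 3, and 7 had an unadjusted p under 0.05, against 21.2% of all tested genes. Of 28 tested cell cycle genes edgeR and DESeq2 called 0, where edgeR called 2.74% of all tested genes. Of these 28 genes 8 had an unadjusted p under 0.05, against 21.2% of all tested genes. Their median was -0.37, the lowest of the lists named here, and -0.39 with the length trend removed. Pcna, the sliding clamp of DNA replication, was at 320 ± 19.2 CPM in WT and 264 ± 27.9 CPM in KO (log2 -0.28, adjusted p 0.207), and Ccnb1, the mitotic cyclin B1, at 1.53 ± 0.643 and 0.608 ± 0.234 CPM (log2 -1.33, adjusted p 0.153).

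Calls were not spread evenly over the genome. Chromosome 12, which carries Hdac9, had 38 of 514 tested genes called (7.39%). Chromosome 1 had 46 of 929 (4.95%), chromosome 16 had 20 of 446 (4.48%) and chromosome 13 had 25 of 565 (4.42%). On these 4 chromosomes together 1.71% of tested genes differed by at least 1 and were called, against 0.301% on the others. With the length trend removed the shares called were 2.12% and 0.301%. The chromosomes were singled out after their values were seen, and no test was made. Of the genes described above, Glrp1, Steap3, Wdfy1 and Arl4c lie on chromosome 1. Gpr141b, Ero1lb, Gadd45g, Akr1c12 and Akr1c19 lie on chromosome 13, Cd200 and B4galt4 on chromosome 16, and Odc1 and Adi1 on chromosome 12. Ccdc39, Adam19, Steap4, Kcna3, Neb, Atp7a, Acp5 and Ndufs5 are among those on other chromosomes. Genes called with the length trend removed had another such gene within 5 tested genes on either side in 48.3% of cases, against 4.22% of genes not called in that way.

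**Figure D4:**
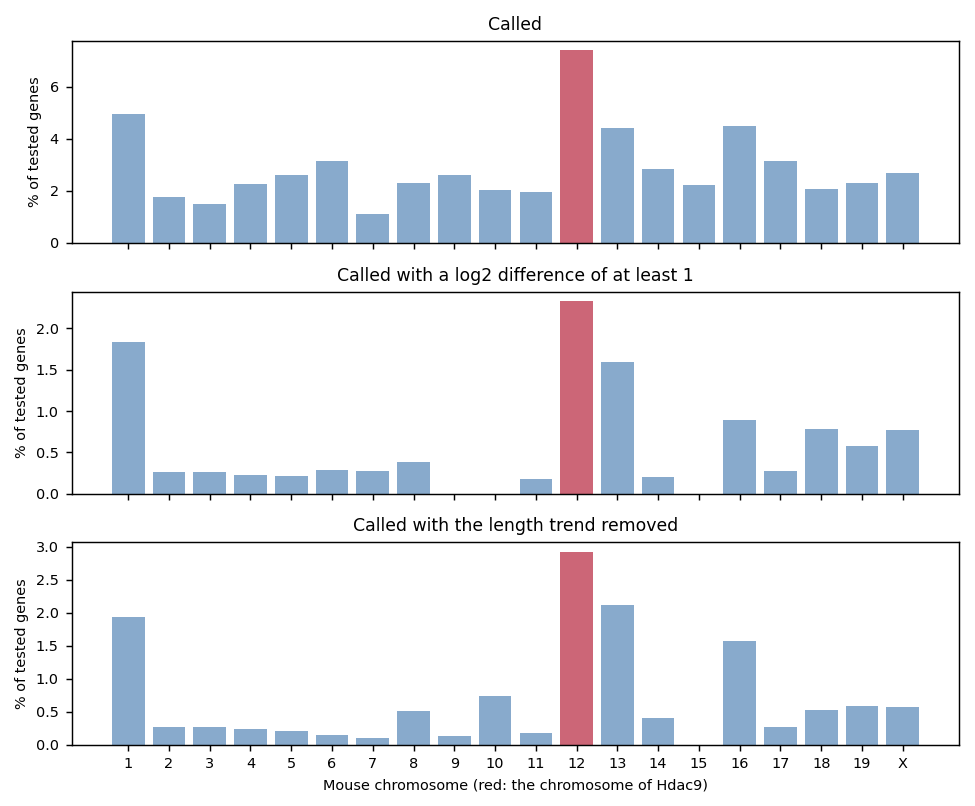
Share of tested genes on each chromosome that were called, called with a log2 difference of at least 1, or called with the length trend removed. Chromosome 12, with Hdac9, is red. Left out are the mitochondrial genes (0 of 23 called) and the sex chromosome Y. On Y 10 genes were tested, of which 3 were called, 2 with a difference of at least 1 and 2 with the length trend removed. Chromosomes 1, 12, 13 and 16 stand above the others shown in all 3 panels, except that in the middle one chromosome 16 is close to chromosomes X and 18.

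Leaving out gene models, 1 of the 4 tested genes nearest to Hdac9, 2 on either side, was called. Twistnb, a subunit of RNA polymerase I, is the next tested gene on one side and was not called (log2 -0.21, SE 0.132, edgeR adjusted p 0.378). Atxn7l1, the one after it, was higher (log2 0.47, SE 0.117, adjusted p 0.0325). With the length trend removed the value was about as large (0.43) but the call was lost (adjusted p 0.0542), as it was without each library other than WT 4 and KO 4 (0.0559 to 0.187). On the other side Snx13, a sorting nexin, differed by 0.11 (SE 0.156, adjusted p 0.73) and Ahr, the aryl hydrocarbon receptor, by -0.53 (SE 0.327, adjusted p 0.368) with overlapping libraries and an interval from -1.17 to 0.11. Dock4, an activator of small GTPases, was higher by 0.85 (SE 0.152, adjusted p 0.00253), 17 tested genes away, and with the length trend removed it was at 0.50 (adjusted p 0.0542).

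A group of called genes, many with large differences, lay farther along chromosome 12, 18 to 54 tested genes from Hdac9. Odc1 and Nol10 are neighbours there and went in opposite directions. Nol10, a nucleolar protein, was at 37.9, 35.4, 35.4 and 35.8 CPM in WT and 84.9, 96.3, 82.8 and 81.8 CPM in KO. WT libraries were nearly equal and KO libraries stood far above them (log2 1.26, SE 0.122, edgeR adjusted p 2.2e-07). Beside them Hpcal1, a neuronal calcium sensor protein, was lower by 0.76 on the log2 scale (SE 0.0958, adjusted p 1.95e-05) and Pqlc3, a membrane protein, by 0.55 (SE 0.112, adjusted p 0.00896). Zfp125, which GENCODE lists as a transcribed pseudogene named for a zinc finger protein, had 1 count over the KO libraries against 42 over WT, 2.58% of the WT level with an exact 95% interval of 0.0637% to 15.2%.

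Nearer to Hdac9 lies Rnf144a, which encodes an E3 ubiquitin ligase and was at 4.82, 3.81, 2.9 and 3.31 CPM in WT and 0.742, 0.719, 0.418 and 0.159 CPM in KO. Each KO library lay below each WT library (log2 -2.87, SE 0.352, edgeR adjusted p 1.26e-05). Rnaseh1, which cuts RNA in RNA-DNA hybrids, was lower by 0.86 (SE 0.0952, adjusted p 2.15e-06), next to Adi1, which was higher. Acp1, the low molecular weight phosphotyrosine phosphatase, was at 17.2, 19.0, 17.2 and 14.9 CPM in WT and 7.98, 8.08, 8.03 and 7.89 CPM in KO. Its KO libraries were almost identical and well under each WT library (log2 -1.10, SE 0.114, adjusted p 6.93e-07). On the other side of Hdac9, 33 and 36 tested genes away, Ap4s1, a subunit of the adaptor complex AP-4, was lower by 0.77 (adjusted p 0.00713) and Dtd2, a deacylase of mischarged transfer RNAs, by 1.19 (adjusted p 0.000394).

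Other genes of the chromosome were higher. Scfd1, which acts in transport between endoplasmic reticulum and Golgi, was higher by 0.53 (SE 0.0938, edgeR adjusted p 0.00214), Slc38a6, of an amino acid transporter family, by 0.65 (adjusted p 0.00253) and Akap6, an anchor of protein kinase A, by 3.59 at no more than 1.89 CPM in a library (adjusted p 0.0036). Sos2, an exchange factor of Ras, was higher by 0.57 (adjusted p 0.0148), Atad2b by 0.60 (adjusted p 0.00732), Smc6, a subunit of a DNA repair complex, by 0.45 (adjusted p 0.0112) and Efr3b, a membrane anchor of a lipid kinase, by 1.21 (adjusted p 0.0331). Scfd1, Sos2, Atad2b, Smc6 and Efr3b lost their calls with the length trend removed, at 0.25, 0.35, 0.26, 0.23 and 0.93 on the log2 scale and adjusted p-values of 0.236, 0.135, 0.189, 0.316 and 0.159. Without WT library 3 those of Sos2, Atad2b and Smc6 were also lost (0.0755, 0.0554 and 0.0547), that of Sos2 likewise without KO 1 or 3 (0.0556 and 0.0587), and that of Efr3b without any library other than KO 2 (0.0502 to 0.141).

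The promoters of the neighbours Nol10 and Odc1 are shown because these genes lie side by side and changed in opposite directions, at chr12:17348243-17348542 and chr12:17544623-17544922 on the plus strand of GRCm38.p6, from RefSeq. Capitals mark a match to the interferon-stimulated response element core on either strand.
Nol10: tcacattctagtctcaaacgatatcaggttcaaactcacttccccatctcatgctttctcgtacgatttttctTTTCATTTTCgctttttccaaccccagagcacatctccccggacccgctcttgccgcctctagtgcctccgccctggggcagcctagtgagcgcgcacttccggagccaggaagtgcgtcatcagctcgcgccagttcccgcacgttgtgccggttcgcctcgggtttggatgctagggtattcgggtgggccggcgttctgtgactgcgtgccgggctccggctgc
Odc1: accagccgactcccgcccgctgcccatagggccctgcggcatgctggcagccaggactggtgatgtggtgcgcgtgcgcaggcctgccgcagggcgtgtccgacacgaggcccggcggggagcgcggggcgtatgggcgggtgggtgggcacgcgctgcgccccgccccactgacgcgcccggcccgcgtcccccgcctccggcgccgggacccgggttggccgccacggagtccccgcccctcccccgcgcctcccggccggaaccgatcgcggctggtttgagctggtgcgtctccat
Of the 46 called genes named by the rule, 39 had a promoter entry, and these held matches in 3 genes: to the interferon-stimulated response element core in Nol10 and Gpr141b and to the MEF2 consensus in Arl4c. The Gpr141b match lies 12 to 3 bases before the start, and the Arl4c match 214 to 205 bases before it, as the capitals show (chr13:19732902-19733201 and chr1:88702142-88702441, both minus strand).
Gpr141b: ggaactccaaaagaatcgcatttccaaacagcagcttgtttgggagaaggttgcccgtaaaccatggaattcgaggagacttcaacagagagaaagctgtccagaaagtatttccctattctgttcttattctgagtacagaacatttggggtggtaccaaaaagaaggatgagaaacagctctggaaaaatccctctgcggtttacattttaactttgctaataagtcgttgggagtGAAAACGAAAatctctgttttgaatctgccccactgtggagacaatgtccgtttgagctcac
Arl4c: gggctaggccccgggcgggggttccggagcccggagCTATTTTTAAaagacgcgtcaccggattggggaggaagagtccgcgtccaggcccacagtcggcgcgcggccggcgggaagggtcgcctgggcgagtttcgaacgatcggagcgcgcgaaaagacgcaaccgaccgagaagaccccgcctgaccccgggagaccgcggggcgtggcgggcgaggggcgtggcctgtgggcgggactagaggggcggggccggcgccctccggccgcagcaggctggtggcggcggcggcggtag
Over all RefSeq promoters of this length 3.44% held the interferon-stimulated response element core and 3.19% the MEF2 consensus, over those of tested genes the shares were 3.42% and 1.56%, and over those of called genes 1.86% and 1.06%. A match describes letters and is not a site shown to be bound.

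Many genes called after LPS were called in untreated macrophages too. Between untreated KO and WT 1079 genes were called (7.31%), 742 higher (5.03%) and 337 lower (2.28%), or 1129 and 292 with size factors from the median of ratios. It was 476, 90 and 126 when untreated WT library 1, 2 or 3 was left out, and 209, 233 and 493 without untreated KO library 1, 3 or 4. Of the 405 genes called after LPS, 267 (65.9%) were called untreated in the same direction, which is 24.7% of the untreated calls, and 0 in the opposite direction. The comparisons share no libraries, but untreated and LPS libraries of the same genotype and number deviate together, so they are not independent. Both also carry the lean with transcript length, with untreated medians from -0.3 in the shortest group of genes to 0.38 in the longest. With that trend removed 89 genes were called after LPS and 141 untreated. What part the lean has in the shared calls was not tested. Steap3 was at 36.2 ± 3.53 CPM in untreated WT and 93.6 ± 12.3 CPM in untreated KO, and Odc1 at 77.2 ± 9.94 and 30.3 ± 4.82 CPM. The order of the genotypes in both genes was thus the same in both states, although the levels of Steap3 were lower with LPS in both genotypes.

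**Figure D5:**
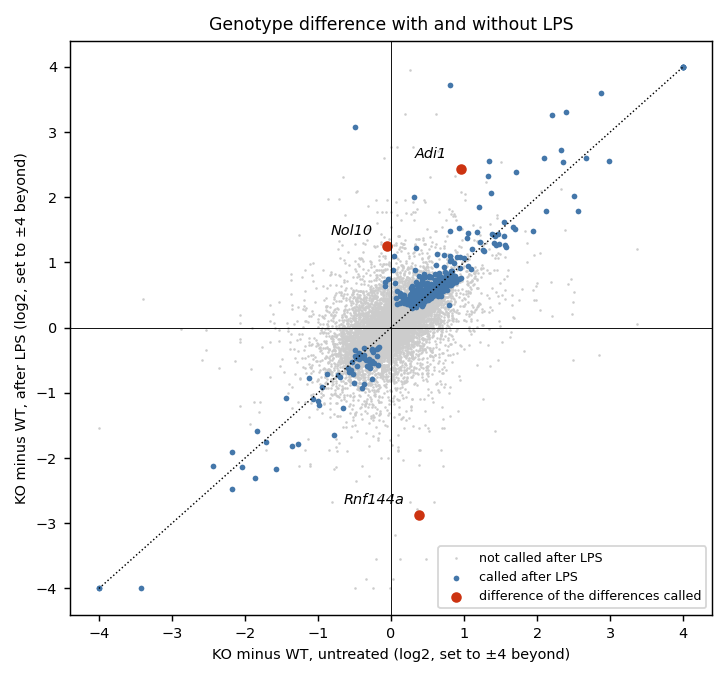
Log2 difference between KO and WT after LPS (vertical) against the same difference without LPS (horizontal), with values beyond 4 drawn at the edge and a dotted line of equality. Genes called after LPS (blue) follow the line, and Nol10, Adi1 and Rnf144a (red), whose 2 differences differed by the test, lie off it.

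The difference between the genotype effects with and without LPS was called for 3 genes (0.0203%), 2 higher (0.0136%) and 1 lower (0.00678%), all on chromosome 12, and 258 genes (1.75%) had an unadjusted p under 0.05. Nol10 was at 24.3, 19.8, 19.2 and 16.8 CPM in untreated WT and 21.9, 16.4, 20.8 and 18.1 CPM in untreated KO. The genotypes overlapped without LPS and separated after it, a difference of 1.31 on the log2 scale (SE 0.173, edgeR adjusted p 0.000731). Rnf144a was at 1.07, 0.512, 0.572 and 0.824 CPM in untreated WT and 0.92, 1.0, 0.742 and 1.22 CPM in untreated KO. It was low in both without LPS, and after LPS the WT libraries alone stood higher (difference -3.26, SE 0.482, adjusted p 0.00291).

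Adi1 was at 22.5, 26.8, 24.5 and 27.7 CPM in untreated WT and 42.3, 71.9, 38.1 and 45.6 CPM in untreated KO. Its mean was lower with LPS in both genotypes, at 4.58 CPM after 25.4 CPM in WT and at 24.8 CPM after 49.5 CPM in KO. KO was above WT in both states and, on the log2 scale but not in CPM, by more after LPS (log2 difference 1.47, SE 0.248, edgeR adjusted p 0.0163). That call was lost when any of LPS-treated WT libraries 1 (adjusted p 0.0791), 2 (0.0688) and 3 (0.0882) or KO library 2 (0.0607) was left out, and without WT library 4 (0.0546) or KO library 1 (0.0604) or 4 (0.0579) of the untreated groups. Ccdc39, which was at most 0.764 CPM in any untreated library, was not called for the difference (log2 2.92, SE 0.77, edgeR adjusted p 1).

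Values of the dCIS line under the same LPS treatment were set beside those of KO. For Steap3 its libraries held 9.16, 10.1, 9.37 and 6.54 CPM, for Nol10 37.6, 37.9, 27.5 and 30.2 CPM and for Odc1 134, 120, 115 and 107 CPM. In these 3 genes each dCIS library lay outside the KO range and close to WT. Other genes differed from that: in dCIS Ndufs5 was at 16.5, 14.0, 16.0 and 7.2 CPM and Gadd45g at 50.9, 44.3, 65.0 and 50.8 CPM. Their dCIS means of 13.4 and 52.8 CPM lay nearer to the KO means of 11.0 and 46.0 CPM than to the WT means of 20.8 and 82.7 CPM. Single libraries did not all do so: Ndufs5 in dCIS libraries 1 and 3 and Gadd45g in dCIS library 3 lay nearer to the WT mean. Neither gene was called between KO and dCIS (edgeR adjusted p 0.408 and 0.486). These genes were chosen after their values were seen. KO against dCIS gave 322 calls (2.18%), 199 higher (1.35%) and 123 lower (0.834%), but 62 without dCIS libraries 3 and 4, which had 17628 and 15997 genes with a count against at least 20458 in the others. It was 1446 without dCIS library 2, 122 without dCIS 3, 155 without dCIS 4, and 150, 149 and 139 without KO library 1, 3 or 4. This comparison and the one with WT share the KO libraries. In it the log2 fold change was -5.57 for Hdac9, 2.14 for Steap3, 1.38 for Nol10 and -1.64 for Odc1, and Cd200, Glrp1, Ccdc39, Adam19 and Wdfy1 were called as well. Between dCIS and WT after LPS 38 genes were called (0.258%), 17 higher (0.115%) and 21 lower (0.142%).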

How the data were processed

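Poly(A) RNA was captured on oligo-dT beads from 200 ng of total RNA and sequenced as pairs of 60-nucleotide reads, according to the protocols in the labels. The authors deposited whole-number counts per mouse gene for all 24 libraries. Tools were STAR and edgeR and the build was mm39, per the submitters' processing notes; the counting program, annotation release, strand setting and versions are not stated there. Gene symbols matched 51948 of 56941 IDs (91.2%). Chromosomes, gene order, overlaps and transcript lengths came from GENCODE on GRCm38, and promoter sequences from RefSeq on GRCm38.p6, so their coordinates are not those of the counts.

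Genes passing edgeR's filter by group (minimum count 10, minimum total 15) entered 1 quasi-likelihood fit of all 24 libraries with a mean per group (edgeR 4.0.16, R 4.3.3), tested 2-sided with Benjamini-Hochberg adjustment over all 14757 genes. Single values were compared by exact 2-sided permutation of 4 against 4 libraries. The length trend was a smooth curve of log2 CPM on log2 transcript length per library (lowess span 0.3), entered as an offset; it was chosen after seeing the data, as was leaving out dCIS libraries 3 and 4 from the main comparison. The fits were tested on simulated data.

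Named genes are Hdac9, at most 15 rises and 15 falls, taken by size from called genes whose groups do not overlap and reach 5 CPM in one of them, called list members, class IIa deacetylases, 11 inflammatory and efflux genes, 10 further called genes on chromosome 12 and the nearest tested neighbours of Hdac9, and genes called for the difference between states. Gene models are counted but not named, and some selected genes are not reported here. Other list members, Akr1c13 and genes overlapping a named gene were chosen after their values were seen. Members and lists were chosen with earlier results of these data known. Untreated and LPS libraries of the same number within a genotype deviate together (r 0.28 to 0.36 in WT, 0.33 to 0.41 in KO), which comes from the data and not from the labels. Libraries of the same group always differed beyond sampling noise (chi-square test over genes). Intervals from counts cover counting error only, since reads carry no molecular identifiers.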

Additional observations from a re-analysis of the deposited data

Results flagged for a closer look

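In 9 of 130 groups of 4 libraries of the named genes, 1 library stood apart from the other 3 by Dixon's criterion, where chance alone sets apart about 1 in 20 groups. Hdac9 was at 16.5 CPM in WT library 2 after LPS, against 10.4 to 11.4 in the other WT libraries. In WT library 1, Nol10 was at 37.9 CPM against 35.4 to 35.8, and Ap4s1 at 7.93 CPM against 11.6 to 12.3. In KO library 2, Tnf was at 2372 CPM against 1663 to 1729, Abcg1 at 248 CPM against 138 to 154, and Pqlc3 at 29.1 CPM against 36.1 to 37.6. In KO library 4, Il10 was at 102 CPM against 73.4 to 75.2, Mitf at 192 CPM against 229 to 235, and Zfp125 at 0.0797 CPM, a single count, against 0 in the others.

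The difference between KO and WT depended on LPS for 3 genes by the test of that difference: Nol10 (1.31 on the log2 scale), Adi1 (1.47) and Rnf144a (-3.26).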

How the results depend on the processing

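Hdac9 kept its direction and its exact permutation p of 0.0286 under each alternative, with mean differences of -11.7 CPM with size factors from the median of ratios, -9.16 on raw totals and -12.7 to -10.6 without single libraries. The 405 calls between KO and WT after LPS became 1038 with no filter on low counts, 1069 with DESeq2, 1995 in a fit of the 8 libraries alone, 872 without dCIS libraries 3 and 4 and 89 with the length trend removed, and 68 to 455 without single libraries. It was 424 with size factors from the median of ratios, 476 with a stricter filter and 490 in the 8 libraries with the length trend removed. Called in each of the 17 alternatives run for this comparison were 36 genes, 17 higher and 19 lower, 11 of them on chromosome 12. The replicate numbers do not pair KO with WT libraries (r from -0.056 to 0.24, with 1 of 4 libraries closest to its own number), and with the number as a replicate block the count was 1058. The 1079 untreated calls became 2097 with DESeq2, 1973 with the replicate block, 141 with the length trend removed and 90 to 951 without single libraries. The 322 calls of KO against dCIS after LPS became 850 with no filter, 679 with DESeq2, 751 with the block, 62 without dCIS libraries 3 and 4 and 122 to 1446 without single libraries. The 3 genes whose difference depended on LPS became 12 with no filter, 6 with DESeq2, 4 with the block within each genotype and 2 to 4 without single libraries; Adi1 was also lost in a fit of the 16 WT and KO libraries alone (adjusted p 0.0869). The cause of these shifts was not tested. No alternative turned the direction of a named gene that was called. Depth limits genes near or below 1 CPM, whose values rest on few counts a library.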
